A study of Mus musculus with 48 samples.

Results

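The hypoxia-inducible factor (HIF) gene Hif1a and 9 of its textbook target or feedback genes were followed by name: Vegfa, Bnip3, Ankrd37, Egln1, Egln3, Car9, Adm, Ndrg1 and P4ha1. All 10 were found among the 27281 genes of the deposited expression table. All 10 also entered the tests, which covered the 13409 genes with a symbol whose log2 values averaged 1 or more. The samples were 48 polyA RNA-Seq libraries from 2 conditionally immortalized mouse striatal progenitor lines of C57BL/6 background: STHdhQ7, labelled wild type, and STHdhQ111, which carries polyglutamine-expanded huntingtin. Every one of the 16 conditions held 3 samples, collected on several days, and all cells, controls included, spent 24 h in medium without serum. The STHdhQ7 line and one set of STHdhQ111 samples received vehicle, and the other 14 sets, all STHdhQ111, received 1 compound each. Diacylglycerol kinase inhibitor II (DKI), meclizine, selisistat, loxapine and cyproheptadine were used at 10 µM, pizotifen at 5 µM, cysteamine at 250 µM, sodium butyrate at 1 mM and 4-deoxypyridoxine (DOP) at 4 mM. Fingolimod phosphate was used at 250 nM, trichostatin A at 10 nM, nortriptyline at 1 nM, and nicotinamide and haloperidol at 0.5 nM. The study placed pizotifen, loxapine and cyproheptadine in Group A from metabolite profiles, and put meclizine with DKI in Group B. Each genotype was represented by a single cell line, so the huntingtin allele and any other difference between the lines cannot be told apart.

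HIF is a dimer of an oxygen-regulated alpha subunit, such as HIF-1α from Hif1a, and the constant partner ARNT. With oxygen present, prolyl hydroxylases encoded by Egln genes mark the alpha subunit for destruction through the von Hippel-Lindau protein, so HIF activity is set largely at the level of protein, not of Hif1a mRNA. When the alpha subunit escapes, the dimer binds short DNA elements with the core letters ACGTG or GCGTG and raises genes for blood vessel growth, glycolysis, pH control, mitochondrial removal and collagen processing. Several of the same genes are also driven by other pathways, among them the amino acid and endoplasmic reticulum stress responses.

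The RefSeq promoter windows of 4 members that carry the results below are shown. Vegfa rose with both compound groups, Bnip3 and P4ha1 with Group A, and Ankrd37 with cyproheptadine and loxapine. Vegfa, P4ha1 and Ankrd37 were also higher in the wild-type line (log2 differences 1.41, 0.89 and 0.82), and Bnip3 was not. Each window holds 300 bases (build GRCm38.p6, 250 before and 50 after the transcription start, read along the gene), with ACGTG and GCGTG on either strand in capitals, where overlapping matches share one run (CACGTG counts on both strands).
Vegfa (chr17:46032328-46032627, minus strand): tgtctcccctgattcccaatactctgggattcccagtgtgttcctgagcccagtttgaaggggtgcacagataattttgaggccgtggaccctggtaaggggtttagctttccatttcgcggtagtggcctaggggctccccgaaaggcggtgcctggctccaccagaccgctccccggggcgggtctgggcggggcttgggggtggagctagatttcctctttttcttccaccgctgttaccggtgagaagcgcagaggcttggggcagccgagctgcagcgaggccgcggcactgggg
Bnip3 (chr7:138909457-138909756, minus strand): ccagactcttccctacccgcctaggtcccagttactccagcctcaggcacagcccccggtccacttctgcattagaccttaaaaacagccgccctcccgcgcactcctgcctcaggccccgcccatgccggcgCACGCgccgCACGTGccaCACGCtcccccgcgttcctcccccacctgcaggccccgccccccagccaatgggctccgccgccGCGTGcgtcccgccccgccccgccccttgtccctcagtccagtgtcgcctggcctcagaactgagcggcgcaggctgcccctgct
P4ha1 (chr10:59323046-59323345, plus strand): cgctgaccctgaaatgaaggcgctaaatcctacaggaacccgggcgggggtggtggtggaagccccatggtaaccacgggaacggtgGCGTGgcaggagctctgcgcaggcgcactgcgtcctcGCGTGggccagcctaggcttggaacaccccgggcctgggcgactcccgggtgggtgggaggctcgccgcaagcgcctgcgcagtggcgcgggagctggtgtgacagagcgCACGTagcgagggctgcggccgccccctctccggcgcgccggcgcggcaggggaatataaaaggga
Ankrd37 (chr8:45999801-46000100, minus strand): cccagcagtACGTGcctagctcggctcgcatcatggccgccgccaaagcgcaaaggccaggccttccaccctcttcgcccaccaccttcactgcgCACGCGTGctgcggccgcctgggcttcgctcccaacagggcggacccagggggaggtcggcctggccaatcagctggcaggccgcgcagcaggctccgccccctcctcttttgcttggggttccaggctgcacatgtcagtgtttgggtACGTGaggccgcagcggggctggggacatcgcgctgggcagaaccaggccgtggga
Bnip3 held 2 ACGTG and 3 GCGTG matches in its window, Ankrd37 2 of each, and P4ha1 1 ACGTG and 2 GCGTG. The Vegfa window shown held neither, while the window of a second Vegfa start (chr17:46025114-46025413) held 1 of each. That second window lies inside the gene, as do the Ankrd37 window shown and the Hif1a window. All of these are counted among the windows that follow. Of 10 windows of the 9 members with an entry, 9 held at least 1 of these cores, against 43.8% of 32851 promoters of the same length (19.6% for ACGTG, 32.4% for GCGTG). The match is to letters only, and factor binding was not measured in these files.

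Values are normalized log2 abundances as deposited, not divided by gene length, so a gene is compared with itself across conditions and not with another gene. Genes with means under 0 hardly vary on this scale (median SD 0.0051). Differences of Car9, Egln3 and Ankrd37, whose values stayed below 5, may also be compressed, which was not tested. The SD left after the fit was 0.069, 0.078 and 0.088 for these genes, and 0.078 for the high gene Ndrg1. Differences are fitted log2 differences from limma with collection day as a term, and a gene was called when its Benjamini-Hochberg adjusted p over the 13409 genes was below 0.05. No read counts could be recovered, so the depth behind each value is unknown. Replicates of one condition correlated at 0.9964 to 0.9994 across genes. Of the markers of the labelled cell type, Vim, Foxp1, Dlx1 and Dlx2 were present, whereas Bcl11b, Drd1 and Adora2a were below the minimum mean. The vehicle samples shared collection slots (day and time) with STHdhQ7 and selisistat in full, with cyproheptadine and DKI in 2 of 3, and with no other compound.

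Over the 14 compounds, 25 of 140 member tests were called (17.9%), close to the 17% of all gene tests. By direction the members leaned upward: 22 of the 25 were higher than vehicle, 15.7% of the member tests against 7.95% of all gene tests, and 3 were lower (2.14% against 9.05%). The members were chosen with earlier results of these data known. The shares here and below are therefore a description, not a test of the set. In Group A 16 of 30 tests were called and all 16 were higher, beside 25.2% called, 12.2% called higher and 13% called lower over all genes. Some of the 16 calls were lost in fits without 1 sample. These were Egln1 and Adm with cyproheptadine, Bnip3 and Ankrd37 with loxapine, and Bnip3 and Ndrg1 with pizotifen. Of the 14 Group A tests not called, 1 (Hif1a with loxapine) was lower at an unadjusted p below 0.05. In Group B 5 of 20 were called, beside 34.5% of all gene tests, and in the other 9 compounds 4 of 90 (4.44%), beside 10.4%. For 7 compounds (cysteamine, fingolimod phosphate, haloperidol, nicotinamide, nortriptyline, selisistat and trichostatin A) limma called no member, and 5 of those 70 tests had an unadjusted p below 0.05. Over all genes these compounds called 7.83%, 0.0597%, 0%, 10.4%, 3.83%, 0.515% and 13.1%, in the order named.

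**Figure D1:**
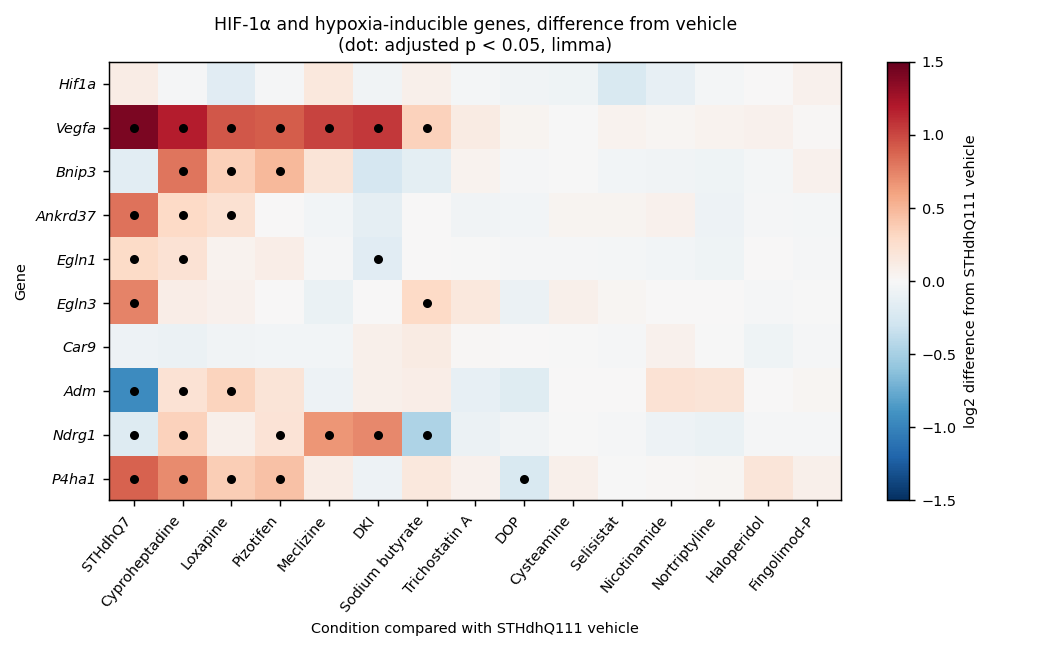
Fitted log2 difference of each of the 10 genes (rows) from STHdhQ111 vehicle in STHdhQ7 and 14 compounds (columns), n = 3 samples a condition; dots mark adjusted p below 0.05. Vegfa carries the strongest red and is called in 6 of 14 compounds, the STHdhQ7 and cyproheptadine columns hold 7 dots each, loxapine 5 and pizotifen 4, and Hif1a and Car9 have no dot in any column.

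The factor itself was close to flat. Hif1a (ENSMUSG00000021109, chr12:73901375-73947530, plus strand) stood at 10.48, 10.42 and 10.32 in the vehicle samples and at 10.44, 10.58 and 10.54 in STHdhQ7, and these groups overlapped. The line difference was 0.12 (SE 0.07, 95% interval -0.03 to 0.26, adjusted p = 0.16). No compound was called, and the fitted differences ran from -0.23 with selisistat (adjusted p = 0.11) to 0.15 with meclizine (adjusted p = 0.11). The selisistat value depended on 1 library: the samples read 10.25, 9.96 and 10.31, the difference was -0.12 without replicate 2, and it was called only without replicate 3 (-0.30, adjusted p = 0.015). Loxapine gave -0.17 (adjusted p = 0.071), which was called without vehicle replicate 3 (-0.22, adjusted p = 0.039) and with only the samples compared (adjusted p = 0.039). Sodium butyrate gave 0.08 (adjusted p = 0.41), which was 0.15 and called against samples at 1 nM or less from its own collection slots (adjusted p = 0.049). Protein was not measured in these files, so the level at which HIF is mainly controlled is not covered.

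The prolyl hydroxylases, which are sensors of oxygen and at the same time HIF targets, differed between the lines more than with compounds. Egln3 (ENSMUSG00000035105, chr12:54178981-54203860, minus strand), which encodes PHD3, read 3.12, 2.92 and 3.03 in vehicle and 3.76, 3.79 and 3.76 in STHdhQ7. The 3 wild-type samples lay above all other samples of the series, and the difference was 0.74 (SE 0.06, adjusted p = 8.2e-13). With sodium butyrate, a histone deacetylase inhibitor, Egln3 read 3.27, 3.43 and 3.26, a rise of 0.30 (SE 0.06, adjusted p = 3.5e-04) with no overlap with vehicle. Trichostatin A, also a histone deacetylase inhibitor but used at 10 nM, gave 3.30, 3.09 and 3.16, a difference of 0.16 that was not called (adjusted p = 0.097), although it was without replicate 2 (0.21, adjusted p = 0.046). Doses of these compounds were not matched, so the values are only set side by side. Egln1 (ENSMUSG00000031987, chr8:124908587-124949324, minus strand) encodes PHD2, the main hydroxylase of HIF-1α. It read 8.91, 8.88 and 9.03 in vehicle, 9.33, 9.13 and 9.22 in STHdhQ7 (0.29, SE 0.07, adjusted p = 6.4e-04) and 9.00, 9.28 and 9.19 with cyproheptadine. The cyproheptadine samples overlapped vehicle, and their call (0.21, adjusted p = 0.017) was lost in 4 of 6 fits without 1 sample, falling to 0.14 without cyproheptadine replicate 2. The DKI samples, at 8.80, 8.78 and 8.75, were below vehicle (-0.17, adjusted p = 0.047), a call that was lost in 5 of 6 fits without 1 sample, at -0.12 without vehicle replicate 3 (adjusted p = 0.23), and also with no filter, with collection time added, without the variance trend, after rescaling and with only the samples compared (adjusted p from 0.051 to 0.077).

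Vegfa (ENSMUSG00000023951, chr17:46016993-46032369, minus strand) encodes the vascular endothelial growth factor VEGF-A, a secreted signal for vessel growth that neural cells also respond to. Its values were 7.92, 7.96 and 7.98 in STHdhQ111 vehicle and 9.60, 9.26 and 9.22 in STHdhQ7, so that the wild-type line was higher by 1.41 (SE 0.10, adjusted p = 1.5e-14), a 2.65-fold difference on this scale. Cyproheptadine gave 8.91, 9.35 and 9.16, and DKI gave 9.15, 8.74 and 9.17. All 6 of these samples were above every vehicle sample. Meclizine gave 9.04, 9.01 and 8.84, loxapine 8.75, 9.01 and 8.91, and pizotifen 8.81, 8.83 and 8.93. The rises were 1.18 (SE 0.11, adjusted p = 1.1e-10) for cyproheptadine, 1.06 (SE 0.11, adjusted p = 2.1e-10) for DKI and 1.01 (SE 0.10, adjusted p = 1.8e-09) for meclizine. For loxapine the rise was 0.94 (SE 0.10, adjusted p = 6.5e-08) and for pizotifen 0.90 (SE 0.10, adjusted p = 1.9e-07). Ranges of neighbouring compounds in this order overlapped, and of the compound samples only the cyproheptadine sample at 9.35 entered the STHdhQ7 range. Within each collection day every sample of the 5 compounds exceeded its day's vehicle sample, by 0.77 to 1.39. The sixth call was sodium butyrate at 8.41, 8.15 and 8.34 (0.34, adjusted p = 8.7e-03), between vehicle and the 5 compounds, and it was lost without replicate 1 (0.28, adjusted p = 0.063). In the other 8 compounds Vegfa stayed between 7.81 and 8.23.

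Adm (ENSMUSG00000030790, chr7:110627661-110629820, plus strand) encodes adrenomedullin, a secreted vasodilator peptide, and went the other way between the lines. It read 6.28, 6.38 and 6.22 in vehicle and 5.18, 5.46 and 5.41 in STHdhQ7, a difference of -0.94 (SE 0.08, adjusted p = 1.8e-13), and the wild-type samples were the lowest of the series. Loxapine samples read 6.79, 6.55 and 6.55 (0.34, SE 0.08, adjusted p = 1.4e-03). Adm was also at 6.43 to 6.56 with nicotinamide and nortriptyline, which were used at no more than 1 nM and shared collection slots with loxapine. Their differences from vehicle were 0.22 (adjusted p = 0.058) and 0.19 (adjusted p = 0.15), and set against those samples the loxapine difference was 0.13 (adjusted p = 0.16). Cyproheptadine gave 6.62, 6.53 and 6.38, a call of 0.22 (adjusted p = 0.023) that was lost in 4 of 6 fits without 1 sample and was 0.17 without cyproheptadine replicate 1.

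Bnip3 (ENSMUSG00000078566, chr7:138890836-138909519, minus strand) encodes a mitochondrial outer membrane protein that marks mitochondria for autophagic removal. Vehicle samples read 8.65, 8.68 and 8.68, and cyproheptadine samples 9.32, 9.60 and 9.49, a rise of 0.80 (SE 0.12, adjusted p = 2.9e-06) with no overlap. Pizotifen gave 8.85, 9.06 and 9.56, and loxapine 8.80, 9.12 and 9.16. Both were above vehicle in all 3 samples but spread widely. The pizotifen rise of 0.48 (adjusted p = 4.3e-03) was 0.28 without replicate 3 (adjusted p = 0.12), and the loxapine rise of 0.35 (adjusted p = 0.032) lost its call in 5 of 6 fits without 1 sample, at adjusted p up to 0.15. Meclizine gave 8.70, 9.19 and 8.70 (0.19, adjusted p = 0.27), where the second sample stood apart from the rest. DKI gave 8.33, 8.51 and 8.41, all below vehicle (-0.26, adjusted p = 0.092). Unlike Vegfa, Bnip3 was not higher in the wild-type line: STHdhQ7 read 8.80, 8.33 and 8.42 (-0.15, adjusted p = 0.30), and without its replicate 1 the difference was -0.31 (adjusted p = 0.04).

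Car9 (ENSMUSG00000028463, chr4:43506966-43513729, plus strand) encodes carbonic anhydrase IX, a membrane enzyme of pH control that is widely used as a hypoxia marker. It lay between 2.97 and 3.32 in all 48 samples, and limma called it in neither STHdhQ7 nor any compound. The largest compound difference was 0.13 with sodium butyrate (3.32, 3.28 and 3.29 against 3.16, 3.19 and 3.16 in vehicle, unadjusted interval 0.01 to 0.24, adjusted p = 0.088). Egln3, with a vehicle mean of 3.02, differed by 0.74 between the lines at a similarly low level. Whether the scale limits differences of Car9 was not tested.

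P4ha1 (ENSMUSG00000019916, chr10:59323296-59373304, plus strand) encodes the catalytic alpha subunit of collagen prolyl 4-hydroxylase. It read 9.91, 9.91 and 9.96 in vehicle and 10.88, 10.71 and 10.86 in STHdhQ7 (0.89, SE 0.07, adjusted p = 1.5e-13). Cyproheptadine brought it to 10.57, 10.73 and 10.63, pizotifen to 10.27, 10.30 and 10.53, and loxapine to 10.18, 10.40 and 10.33. The rises were 0.71 (SE 0.07, adjusted p = 1.4e-09), 0.44 (SE 0.07, adjusted p = 3.5e-05) and 0.37 (SE 0.07, adjusted p = 2.4e-04), and none of these samples overlapped vehicle. Both Group B compounds were near vehicle: DKI gave 9.91, 9.82 and 9.82 (-0.08, adjusted p = 0.41) and meclizine 9.94, 10.28 and 9.88 (0.11, adjusted p = 0.30). The high meclizine sample was the same library that was high for Bnip3. DOP, a vitamin B6 antagonist, gave 9.77, 9.58 and 9.75 (-0.23, adjusted p = 0.022), and the call was lost without DOP replicate 2 (-0.16, adjusted p = 0.19) and without vehicle replicate 1 or 3.

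Ndrg1 (ENSMUSG00000005125, chr15:66929318-66969640, minus strand) encodes a cytoplasmic protein of the N-myc downstream-regulated family that is induced by hypoxia and by other stresses. It read 11.15, 11.09 and 11.16 in vehicle, 12.00, 11.74 and 11.84 with DKI and 11.88, 11.69 and 11.82 with meclizine. The Group B samples were the 6 highest of the series, with rises of 0.72 (SE 0.06, adjusted p = 8.6e-12) and 0.66 (SE 0.06, adjusted p = 2.4e-10). Cyproheptadine followed at 11.38, 11.51 and 11.55 (0.34, SE 0.06, adjusted p = 4.3e-05). Pizotifen gave 11.35, 11.31 and 11.36 (0.21, adjusted p = 0.018), a call lost in 3 of 6 fits without 1 sample at adjusted p up to 0.083. Loxapine gave a difference of 0.08 (adjusted p = 0.39), which was 0.17 against the slot-matched low-dose samples (adjusted p = 0.022). Sodium butyrate lowered Ndrg1 to 10.60, 10.73 and 10.69 (-0.46, SE 0.06, adjusted p = 3.8e-07), the largest of the 3 called falls with a compound. STHdhQ7 read 10.83, 11.06 and 10.95 (-0.19, adjusted p = 9.7e-03), and without its replicate 1 the difference was -0.13 (adjusted p = 0.11).

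Ankrd37 (ENSMUSG00000050914, chr8:45996902-46005707, minus strand) encodes a small ankyrin repeat protein and is a hypoxia-induced gene. It read 3.62, 3.68 and 3.79 in vehicle and 4.58, 4.47 and 4.49 in STHdhQ7 (0.82, SE 0.07, adjusted p = 1.8e-12), and the wild-type samples were the 3 highest of the series. Cyproheptadine gave 3.98, 3.97 and 4.04 (0.30, SE 0.07, adjusted p = 1.1e-03) and loxapine 3.96, 3.90 and 3.92 (0.23, adjusted p = 0.017). Loxapine's call was lost without vehicle replicate 1 (0.19, adjusted p = 0.13) or its own replicate 1 (0.22, adjusted p = 0.058). Pizotifen, at 3.68, 3.64 and 3.80, overlapped vehicle (0.01, adjusted p = 0.96). Ankrd37 overlaps Ufsp2 and Lrp2bp on the opposite strand. Hif1a, Bnip3, Car9, Adm and Ndrg1 overlap unnamed gene models (Gm symbols). Whether reads were counted by strand is not given in the sources used here, so for these genes reads of an overlapping gene may be included.

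**Figure D2:**
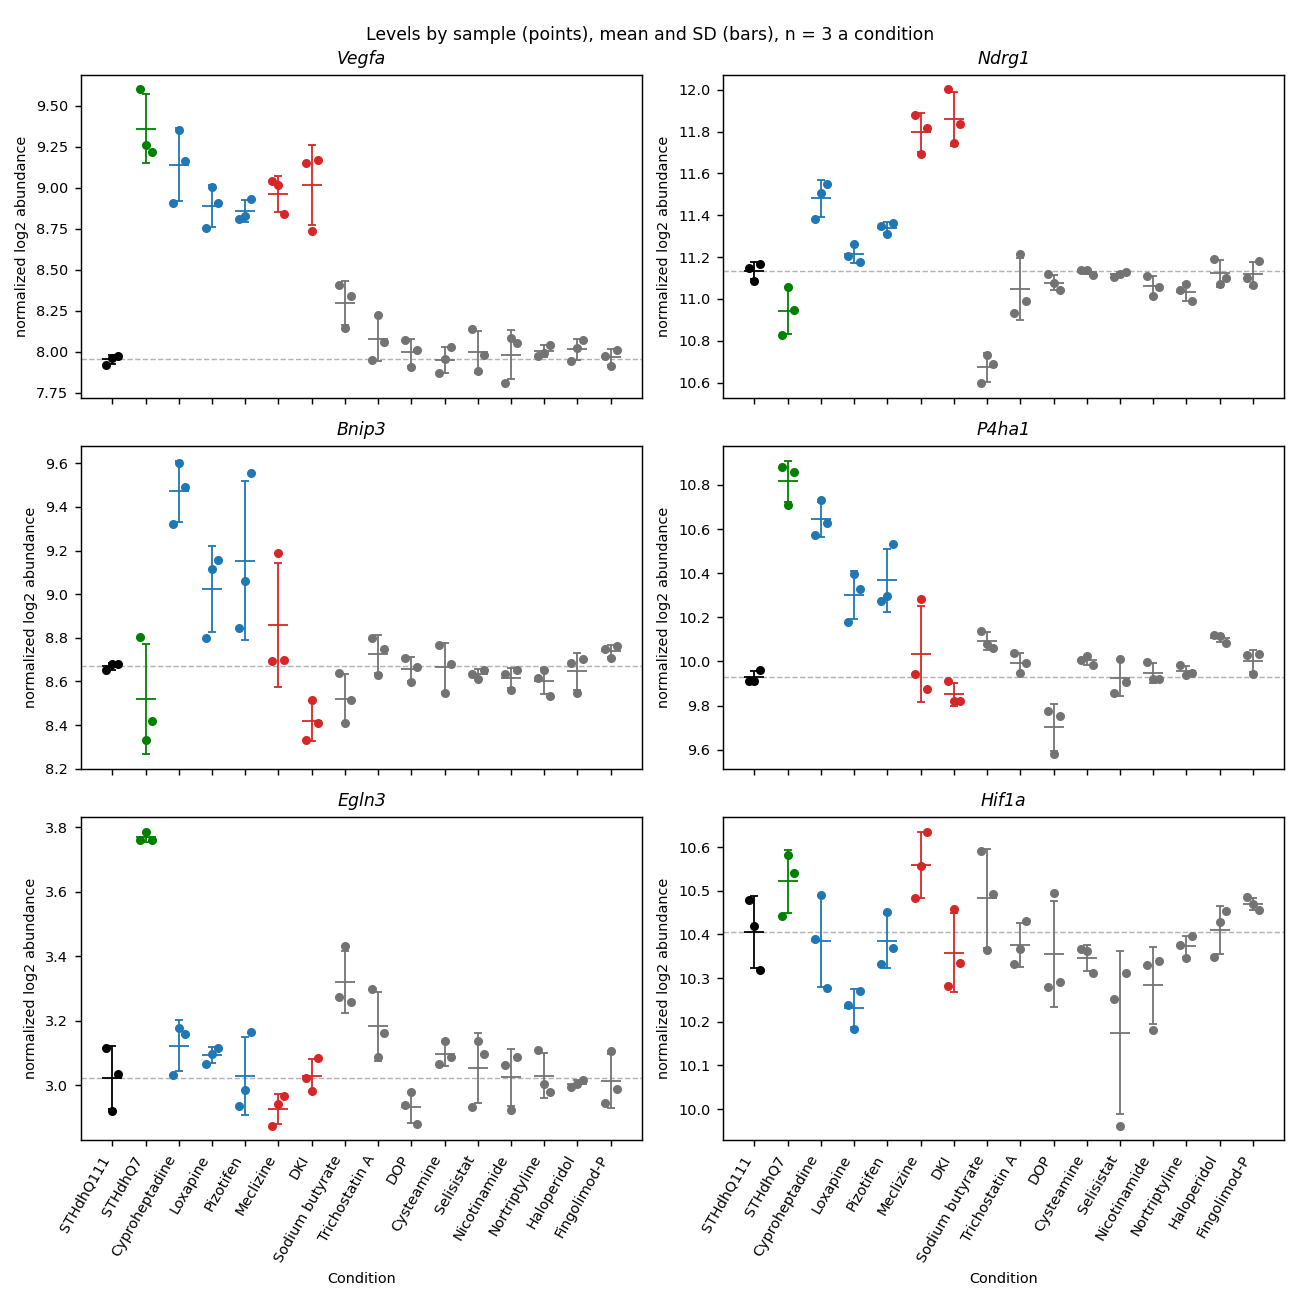
Normalized log2 abundance (vertical axis, a separate range in each panel) of 6 genes in every sample by condition; points are samples, bars the mean and SD of 3, and the dashed line the vehicle mean; blue is Group A, red Group B, green STHdhQ7. Vegfa lies between 8.74 and 9.35 in both coloured compound groups, Ndrg1 is highest in the red group, Bnip3 and P4ha1 are higher in blue, and Egln3 is highest in STHdhQ7.

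Across the lines as a whole, 7 of 10 members were called between STHdhQ7 and STHdhQ111 vehicle, beside 55.8% of all genes tested (29.2% higher in the wild type and 26.6% lower). Vegfa, P4ha1, Ankrd37, Egln3 and Egln1 were higher in the wild type, and Adm and Ndrg1 were lower. The median member difference was 0.20, with a median over all genes of 0.00. Markers also differed between the lines: the neural stem cell filament Nes averaged 10.95 in STHdhQ7 and 4.96 in STHdhQ111, the smooth muscle actin Acta2 11.13 and 4.57, and the leukocyte antigen Ptprc 7.86 and 10.59. Of 4 neural progenitor markers tested 4 were higher in STHdhQ7, with a summed linear level of 48900 to 54500 against 42700 to 46700. Vim, at 15.60 in STHdhQ7 and 15.42 in STHdhQ111, made up most of these sums. Likewise, Col1a1 made up most of the mesenchymal sums and Ptprc of the leukocyte sums given below. Such sums follow the highest gene and do not describe a whole list. Of 5 ventral forebrain and striatal markers tested none was called higher and 2 were lower (1600 to 1810 against 2310 to 2470). Of 5 mesenchymal markers 1 was higher and 2 were lower (26800 to 34400 against 33500 to 38400), and of 2 leukocyte markers tested 1 was lower (168 to 327 against 1420 to 1720), with the defining microglial genes Aif1 and Cx3cr1 below the minimum in both lines. The part of these differences in the member values was not tested. In bulk RNA, fewer cells of a type and less RNA per cell cannot be told apart.

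In the direct comparison of the compound groups the vehicle mean does not enter the difference, although vehicle samples share in the fit of collection day and spread. The mean of DKI and meclizine was set against the mean of cyproheptadine, loxapine and pizotifen (pizotifen at 5 µM, the others at 10 µM). The SEs, intervals and limma p-values here measure the spread between samples of one compound, not between compounds of a group. They apply to these compounds only. Of the 10 members 8 were called, 2 higher and 6 lower in Group B, beside 41.3% of all genes called (21.4% higher and 19.9% lower), and the median member difference was -0.16 against 0.00 over all genes. For Bnip3 the lowest, median and highest values were 8.80, 9.16 and 9.60 over the 9 Group A samples and 8.33, 8.60 and 9.19 over the 6 Group B samples. The difference was -0.58 (SE 0.08, adjusted p = 1.3e-07), and the ranges overlapped only through the meclizine sample at 9.19. P4ha1 ran over 10.18, 10.40 and 10.73 in Group A and 9.82, 9.89 and 10.28 in Group B (-0.49, SE 0.05, adjusted p = 3.9e-11). Ndrg1 was the only member whose groups did not overlap, at 11.18, 11.35 and 11.55 in Group A and 11.69, 11.83 and 12.00 in Group B (0.48, SE 0.04, adjusted p = 2.6e-12). Ankrd37 (-0.27, adjusted p = 1.1e-05), Adm (-0.25, adjusted p = 7.5e-05) and Egln1 (-0.21, adjusted p = 2.2e-04) were lower in Group B, with overlapping ranges. Vegfa ran over 8.75, 8.91 and 9.35 in Group A and 8.74, 9.03 and 9.17 in Group B. Its difference was 0.03 with a 95% interval of -0.11 to 0.16 (adjusted p = 0.78), so differences beyond 0.16 in either direction lie outside that interval. The calls of Hif1a (0.12, adjusted p = 0.026) and Egln3 (-0.10, adjusted p = 0.041) each depended on single libraries: Hif1a was 0.10 without DKI replicate 2 (adjusted p = 0.11), 0.12 without loxapine replicate 2 (adjusted p = 0.05), 0.11 without cyproheptadine replicate 3 (adjusted p = 0.067) and 0.10 without meclizine replicate 3 (adjusted p = 0.092), and Egln3 lost its call in 9 of 15 fits without 1 sample, at -0.08 without pizotifen replicate 3 (adjusted p = 0.12). Car9 (0.08, adjusted p = 0.10) was called only without loxapine replicate 1 (0.09, adjusted p = 0.042).

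**Figure D3:**
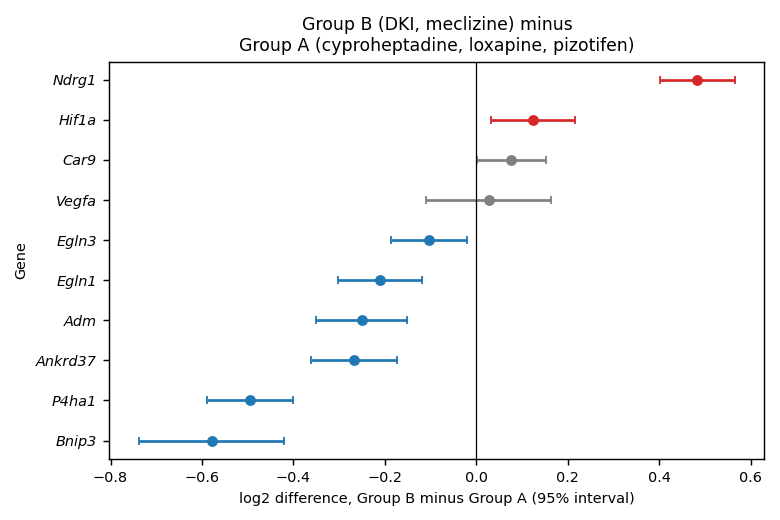
Fitted log2 difference (horizontal axis) of each member between Group B and Group A with its 95% interval, red where called higher, blue where called lower, grey where not called. Ndrg1 stands at 0.48 and Bnip3 at -0.58, while the Vegfa interval spans 0.

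Meclizine, a piperazine antihistamine, and cyproheptadine, a tricyclic piperidine antihistamine, were both used at 10 µM. They differed in 7 of 10 members, 1 higher and 6 lower with meclizine, beside 18.8% of all genes (9.02% higher and 9.83% lower). With meclizine Bnip3 was lower, at -0.61 on the log2 scale (SE 0.12, adjusted p = 4.0e-04), as was P4ha1 at -0.61 (SE 0.07, adjusted p = 2.1e-07) and Ankrd37 at -0.34 (SE 0.07, adjusted p = 7.3e-04). Ndrg1 was higher by 0.32 (SE 0.06, adjusted p = 3.4e-04). Vegfa differed by -0.17 (95% interval -0.39 to 0.04, adjusted p = 0.28). Fitted on the samples of these compounds alone, 2 of the 10 members were called, while the share over all genes fell to 2.35%, and without meclizine replicate 3 there were 4. DKI and meclizine, also both at 10 µM, differed in 1 of 10 members beside 8.11% of all genes: Bnip3 was lower with DKI (-0.45, SE 0.12, adjusted p = 0.018), which was -0.27 without meclizine replicate 2 (adjusted p = 0.25), and lost its call too without DKI replicate 1 (adjusted p = 0.13) or 3 (adjusted p = 0.052). Without DKI replicate 2 or meclizine replicate 3 the count was 2. The intervals for Vegfa (-0.17 to 0.26) and Ndrg1 (-0.07 to 0.19) in this pair included 0.

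Counted by compound, 7 of 10 members were called with cyproheptadine, all higher, beside 35.6% of all genes (17.5% higher and 18.2% lower). With loxapine 5 were called, all higher, beside 21.9% (10.1% and 11.8%), and with pizotifen 4, all higher, beside 17.9% (8.86% and 9.07%). Medians of the members were 0.26, 0.16 and 0.15. With meclizine 2 were called, Vegfa and Ndrg1, both higher, beside 26.8% (13.1% higher and 13.6% lower). With DKI 3 were called, Vegfa and Ndrg1 higher and Egln1 lower, beside 42.3% (20.4% and 21.9%). Their medians were 0.05 and -0.02. Sodium butyrate called 3 beside 37.5%, and DOP 1 beside 20.1%. All these comparisons share the same 3 vehicle samples. Without vehicle replicate 1 loxapine called 3, beside 12.8% of all genes, and without its own replicate 3 pizotifen called 2. The DOP count was 0 without DOP replicate 2 or without vehicle replicate 1 or 3 (11.5% and 20.6% of all genes for the vehicle replicates). It was 2 against the slot-matched low-dose samples, beside 10.6%, where Adm joined at -0.39 (adjusted p = 2.2e-04).

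Other genes of the pathway were read from 3 lists of textbook members. These lists too were chosen with earlier results of these data known, so their counts are a description. Of the factors and regulators (15 of 16 in the table were tested), cyproheptadine called 4 higher and 4 lower, loxapine 3 and 5, pizotifen 3 and 2, DKI 5 and 5, meclizine 3 and 2, and STHdhQ7 5 and 4. Over all genes the shares called higher and lower were 17.5% and 18.2% for cyproheptadine, 10.1% and 11.8% for loxapine, 8.86% and 9.07% for pizotifen, 20.4% and 21.9% for DKI, 13.1% and 13.6% for meclizine, and 29.2% and 26.6% for STHdhQ7, and the same shares stand beside the other lists. Siah2, a ubiquitin ligase that destabilizes Egln proteins, was higher by 0.73 with cyproheptadine (adjusted p = 2.7e-08), 0.64 with DKI and 0.51 with meclizine. Cul2, the scaffold of the ligase that removes HIF alpha subunits, was higher by 0.45 with DKI (adjusted p = 6.5e-08) and 0.22 with meclizine, and by 0.29 in Group B against Group A (adjusted p = 3.6e-08). Cited2, which competes with HIF for its coactivators, was higher by 0.36 with cyproheptadine (adjusted p = 5.5e-06) and lower in STHdhQ7, at -0.78 (adjusted p = 7.1e-15). The coactivator gene Ep300 was lower with cyproheptadine, at -0.32 (adjusted p = 2.4e-03), and with DKI, at -0.28 (adjusted p = 4.7e-03).

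Among glucose uptake and glycolysis genes (17 tested), cyproheptadine called 12 higher and 0 lower, pizotifen 7 and 0, loxapine 5 and 0, meclizine 5 and 1, and DKI 3 and 6. In the 3 comparisons with none lower, limma gave 0 lower at an unadjusted p below 0.05 as well. List medians were 0.33, 0.14, 0.14, 0.08 and -0.01. Hk2, the hexokinase that starts glycolysis in growing cells, was higher by 1.44 with cyproheptadine (adjusted p = 3.9e-10), 1.53 with DKI (adjusted p = 2.1e-11) and 1.21 with meclizine (adjusted p = 1.4e-08). Slc2a1, the glucose transporter GLUT1, was higher by 0.82, 0.38 and 0.51 with the same compounds. Hk1 and Aldoc were lower with DKI (-0.64, adjusted p = 6.8e-09, and -0.59, adjusted p = 2.8e-04). Group B against Group A called 3 higher and 11 lower: the enzyme genes Aldoc (-0.56, adjusted p = 5.1e-07), Ldha (-0.55, adjusted p = 8.1e-09) and Pfkl (-0.54, adjusted p = 1.2e-05) were lower and Hk2 was higher (0.30, adjusted p = 5.5e-03). STHdhQ7 called 12 higher and 2 lower, with the glucose transporter Slc2a3 at 2.17 (adjusted p = 1.2e-18) and the brake on pyruvate entry Pdk1 at -0.56 (adjusted p = 5.8e-06).

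Of 28 further targets tested, cyproheptadine called 15 higher and 4 lower, pizotifen 13 and 2, loxapine 11 and 2, meclizine 8 and 5, and DKI 7 and 11. Medians were 0.25, 0.14, 0.17, 0.03 and -0.01. Ero1l, the oxidase of disulfide formation, was higher by 1.02 with cyproheptadine (adjusted p = 1.4e-09), 1.11 with DKI (adjusted p = 3.9e-11) and 1.10 with meclizine (adjusted p = 1.8e-10). Stc2, a secreted glycoprotein, rose by 0.90, 2.07 and 1.45, and the heme oxygenase gene Hmox1 by 1.42 with DKI (adjusted p = 1.5e-12) and 0.92 with meclizine (adjusted p = 1.1e-07). Ero1l, Stc2 and Hmox1 are known also as targets of the integrated stress and oxidative stress responses. Group B against Group A called 6 higher and 17 lower: Stc2 (1.20, adjusted p = 8.2e-13), Hmox1 (0.85, adjusted p = 6.2e-12) and Ero1l (0.42, adjusted p = 1.8e-06) were higher, and the collagen crosslinker Lox (-0.66, adjusted p = 1.6e-09) and the transcriptional repressor Bhlhe40 (-0.59, adjusted p = 5.4e-13) were lower. In STHdhQ7 12 were higher and 10 lower, among them Stc2 (1.90, adjusted p = 6.4e-14) and Angptl4 (-1.84, adjusted p = 2.2e-16).

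**Figure D4:**
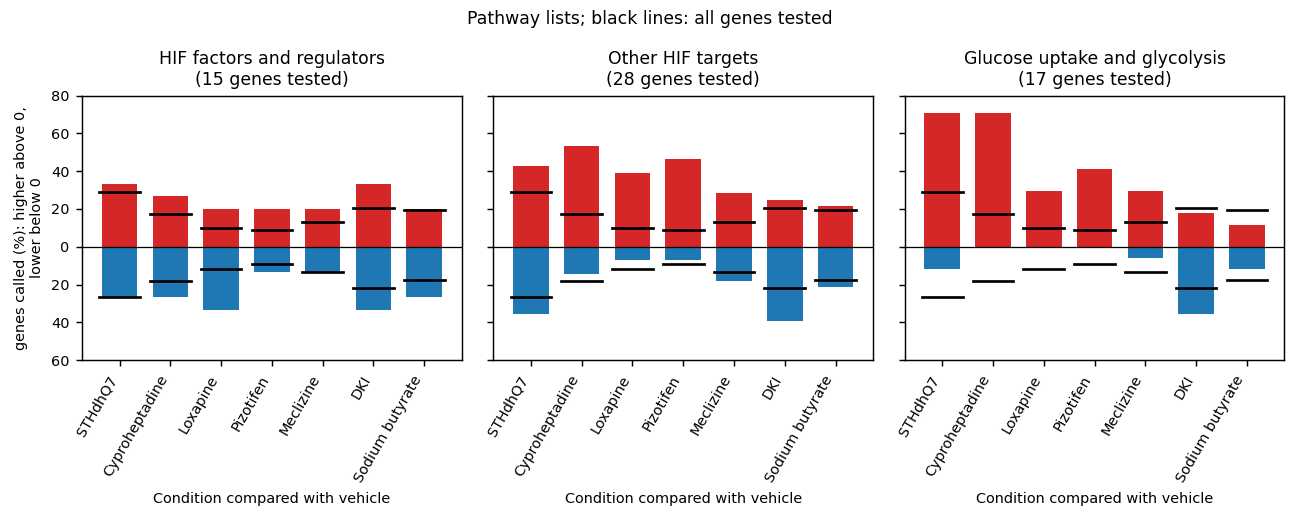
Share of each pathway list called (%), higher above 0 in red and lower below 0 in blue, against STHdhQ111 vehicle in 7 comparisons; black lines give the same shares over all genes tested. In the glycolysis panel the cyproheptadine bar stands on 12 of 17 genes higher and none lower, while DKI has 3 higher and 6 lower.

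Profiles over the 16 condition means were used to find genes most like the members, as a description over points that share lines and controls. Among 6698 candidate genes, those closest to the mean of the members were Xbp1 (Pearson's r 0.957), Plk3 (0.954), Hsd17b12 (0.951), Siah1b (0.943) and Sec61a1 (0.941). Closest to Vegfa were Itgb2 (0.975), Dusp4 (0.952), Gm17296 (0.950), Taf1d (0.947) and Slc1a5 (0.947). Closest to Bnip3 were Tram1 (0.940), Gpr180 (0.938), Surf4 (0.928), Copg1 (0.926) and Sgsm1 (0.926). Among the members the closest pair was P4ha1 and Egln1 (r 0.917), and Adm and Egln3 ran most oppositely (r -0.724).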

How the data were processed

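PolyA RNA was sequenced by the authors from 48 samples (single-end reads, directional kit). Per the labels and methods, reads were trimmed with Trimmomatic 0.36 and quantified with RSEM on the GRCm38.p5 mouse transcriptome. The deposited values are log2 abundances, 1 column per sample, normalized and transformed by the authors; the transformation is not given in the sources used here, and low genes vary little (median SD 0.0051 for means under 0, 0.14 for means of at least 6). Genes with a symbol and a mean of at least 1 were tested. limma 3.58.1 (R 4.3.3) took all 48 samples into one model of condition and collection day, as the study modelled day, with 30 residual degrees of freedom, a mean-variance trend and Benjamini-Hochberg adjustment within each of 18 comparisons (two-sided). The fit was tested on simulated data. Whether replicates were separate cultures is not stated, so p-values measure the spread between these samples. The exact permutation test of 3 against 3 cannot go below 0.10 and was not used. Same-numbered samples of most pairs of conditions did not deviate together: the mean correlation was over 0.1 in 9 of 120 pairs. Conditions sharing collection slots were not examined apart in this check. The members and lists were chosen with earlier results of these data known. All 10 members were named. From each pathway list, only genes among the 3 largest called rises and 3 largest falls of a comparison were named. Some listed genes are not reported here by name. Similar genes were the 5 with the highest Pearson's r. Alternatives covered the filter, day and time terms, pairing, the samples fitted, the variance model, the scaling, each sample left out, and, chosen after seeing the data, slot-matched controls.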

Additional observations from a re-analysis of the deposited data

How the results depend on the processing

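Of 2816 member values recomputed under alternatives, 2584 kept their direction and their side of the threshold, 142 uncalled values changed sign and stayed uncalled (each at most 0.11 in size with all samples), 74 lost a call and 16 gained one, and no called value changed sign. Without 1 sample, the count over the 14 compounds ran from 19 to 26 (25 with all samples), for STHdhQ7 it stayed at 7, for cyproheptadine 5 to 6, loxapine 3 to 5, pizotifen 2 to 4, meclizine 2, DKI 2 to 3, sodium butyrate 2 to 3, DOP 0 to 1, selisistat 0 to 1 and trichostatin A 0 to 1. For Group B against Group A it ran from 6 to 9, for DKI against meclizine from 0 to 2, and for meclizine against cyproheptadine from 4 to 6. Shares over all genes moved too. Without vehicle replicate 1, 2 or 3 they were 28.4%, 30.4% and 33.1% for cyproheptadine (35.6% with all samples). For loxapine they were 12.8%, 16.9% and 20.3% (from 21.9%), and for DOP 11.5%, 13.2% and 20.6% (from 20.1%). Shares for fits without a compound sample are not given here. Nicotinamide called 1 member (Adm) in place of 0 with a minimum mean of 5, without the day term, or without the variance trend. Beside these stood 14.4%, 12.4% and 10.2% of all genes (10.4% in the main fit). With only the samples compared, DKI against meclizine called 0 (beside 0.104% of all genes, from 8.11%) and meclizine against cyproheptadine 2 (beside 2.35%, from 18.8%). In such fits cyproheptadine called 5 (beside 23.2%, from 35.6%), STHdhQ7 6 (beside 44.4%, from 55.8%) and loxapine 6 (beside 23.1%, from 21.9%). Against slot-matched samples at 1 nM or less, an alternative chosen after seeing the data, DOP called 2 (beside 10.6% of all genes, from 20.1%). Cysteamine called no member, as in the main fit, while its share over all genes fell to 0.119% (from 7.83%). Sodium butyrate called 4 (Hif1a gained, beside 30.8%, from 37.5%). Loxapine called 5 (beside 22.8%, from 21.9%), with Adm lost and Ndrg1 gained. The cause of these changes was not tested, beyond the smaller number of samples in such fits. The replicate number as a block in place of collection day changed no count (replicate block: 25 over the 14 compounds, 7 for STHdhQ7, 8 for Group B against Group A). The replicate number equals the day except for replicate 1 of cyproheptadine and of DKI, both collected on day 3. The replicate block is therefore nearly the same model, and its unchanged counts say little. DESeq2 and another pseudocount could not be run because the values are log2 and not counts. Depth is unknown, and whether the scale limits differences of low genes such as Car9 was not tested.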
